A study of Mus musculus with 14 samples.

Results

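HOX genes, the homeobox transcription factors that lie in 4 clusters, were followed in epidermal stem cells (EpdSCs) of mouse skin while SOX9 was switched on. They were taken as every row of the time-course expression table whose gene symbol was Hoxa, Hoxb, Hoxc or Hoxd followed by a number, which gave 39 of 54332 rows (11 Hoxa, 10 Hoxb, 9 Hoxc and 9 Hoxd genes). The study carried a Myc-tagged Sox9 transgene behind a tetracycline-responsive element (TRE-myc-Sox9), driven by the reverse tetracycline activator under the keratin 14 promoter (K14rtTA), so that doxycycline (DOX) turned SOX9 on in the Krt14-expressing basal layer. EpdSCs of CD1 mice labelled male were sorted from back skin (negative for CD31, CD45, CD117, CD140a and CD34, high for CD49f and Ly6A) before DOX at P21 (D0), and after DOX for 1 week at P28 (W1), 2 weeks at P35 (W2), 6 weeks at P63 (W6) and 12 weeks (W12). Each timepoint had 2 libraries, and all 10, D0 included, carried both transgenes. The W12 skin differed in kind, because it came from newborn skin of the same genotype grafted onto female immunocompromised Nude hosts and induced after healing. Grafting, host and 12 weeks of SOX9 therefore cannot be told apart at W12, nor can age and time of DOX at W1 to W6, since no uninduced mice of matched age were analysed here. Another 4 libraries of the series, from E15.5 hair placode and epidermal cells, were represented by a table of comparisons and were not used here.

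HOX proteins give cells along the body axis a positional identity, and the order of the genes within a cluster follows the order of their domains along that axis. Genes with the same number in different clusters are paralogues, low numbers being anterior (groups 1 to 3), middle numbers central (4 to 8) and high numbers posterior (9 to 13). In adult skin, keratinocytes and dermal fibroblasts keep a HOX pattern that reflects where the skin came from. Polycomb complexes hold silent HOX genes closed, trithorax complexes keep active ones open, and the proteins bind DNA together with PBX, MEIS and PKNOX partners of the TALE family.

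Values were in TPM, a measure of transcript abundance that scales each gene by its length and each library to the same total, so levels of different genes can be set side by side but the depth behind them is unknown and no counting interval was computed. The transgene transcript lay between 45.6 and 89.6 TPM at D0 and from 606 to 3414 TPM in the 8 induced libraries. The basal keratinocyte markers summed to between 35409 and 60457 TPM in every library. The 2 W12 libraries stood apart in markers of other cells: all 5 endothelial genes (Pecam1, Cdh5, Kdr, Tek, Emcn) were higher there than in any earlier library, summing to 57.0 and 124 TPM against at most 1.64 TPM before, although the gate removed CD31-positive cells. Of the 5 Merkel cell markers 3 (Krt8, Krt18, Krt20) were also higher, with Atoh1 listed at 0. Of 8 melanocyte markers 5 were, with sums of 14.1 and 12.4 TPM against at most 13.1 TPM, and of 7 immune markers only Cd74 was, with Ptprc at 0.0184 and 0.327 TPM. Of the 9 markers of hair follicle stem cells and outer root sheath, Cd34 was higher than in any earlier library although the gate was CD34-negative (16.5 and 32.001 TPM, at most 5.04 TPM before), and 4 were lower. All 9 together were at 315 to 374 TPM against 528 to 12036 TPM before, mostly from Krt15, also a basal marker. The 11 markers of hair matrix and shaft summed to at most 8.46 TPM against 8.70 to 19.1 TPM, and the 8 of differentiating epidermis to 11958 to 13569 TPM against 1913 to 12521 TPM. In bulk RNA, fewer cells of a type and less RNA in each cell cannot be told apart, and the part of these cells in the HOX values was not tested. Collagen genes that define dermal fibroblasts (Col1a1, Col1a2, Col3a1) stayed at or under 0.498 TPM at W12, while Dcn was at 13.2 and 27.2 TPM there and at 51.2 TPM in W6 replicate 2. One D0 library (replicate 2) had 4.61 TPM of Xist, transcribed from the inactive X, and only 0.0278 TPM of Ddx3y, on the Y chromosome. It so went against its male label. The HOX count at W12 and the median HOX changes from D0 are given with and without it. Both W12 libraries held Xist (5.51 and 3.50 TPM) beside Ddx3y (10.97 and 12.9 TPM).

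The Hoxa, Hoxb and Hoxc clusters were detected in EpdSCs at D0, and the Hoxd cluster was not. Averaged over the 10 libraries, 17 HOX genes reached 1 TPM or more, 7 of 11 in Hoxa, 6 of 10 in Hoxb, 4 of 9 in Hoxc and 0 of 9 in Hoxd. At least 0.1 TPM was reached by 27, and 3 genes (Hoxa11, Hoxb13 and Hoxc11) were listed at 0 in every library. The detected genes ran from Hoxa2 to Hoxa9, from Hoxb2 to Hoxb9 and from Hoxc4 to Hoxc8, and only the Hoxb run had gaps, at Hoxb4 and Hoxb8. No gene of groups 10 to 13 reached 1 TPM in any library before W12. Hoxa7, a central gene of the Hoxa cluster, was the most abundant, with 40.9% of all HOX TPM over the 10 libraries, and Hoxb2 held 48.7% of the Hoxb sum and Hoxc8 40.6% of the Hoxc sum.

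Summed over its genes, the Hoxa cluster (chromosome 6, 52155590 to 52260880 on GRCm38) stood at 113 ± 15.8 TPM (SD, n = 2) at D0, 121 ± 18.95 by W1, 142 ± 4.57 (W2), 109 ± 3.55 (W6) and 56.2 ± 4.19 (W12). The Hoxc cluster (chromosome 15, 102921103 to 103036852) stood at 34.04 ± 0.869 TPM (SD, n = 2) at D0, 31.2 ± 5.44 by W1, 37.2 ± 0.614 (W2), 27.9 ± 1.85 (W6) and 13.2 ± 2.48 (W12). Both W12 libraries lay below all 8 earlier ones in each of these sums. The Hoxb cluster (chromosome 11, 96194316 to 96368256) stood at 51.7 ± 8.35 TPM (SD, n = 2) at D0, 57.3 ± 2.75 by W1, 60.8 ± 1.54 (W2), 59.7 ± 4.53 (W6) and 51.5 ± 0.324 (W12), and its W12 libraries lay inside the range of the earlier ones. The Hoxd cluster (chromosome 2, 74668310 to 74765142) stood at 0.171 ± 0.0111 TPM (SD, n = 2) at D0, 0.0288 ± 0.0407 by W1, 0.242 ± 0.111 (W2), 0.183 ± 0.0582 (W6) and 7.34 ± 2.19 (W12). With 2 libraries a timepoint these sums carry no test of their own. Over all clusters the sum was 198 ± 23.3 TPM at D0 and 128 ± 4.802 TPM at W12 (SD, n = 2), and the Hoxb share of it was 25.2% and 26.8% at D0 and 39.3% and 41.1% at W12.

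**Figure D1:**
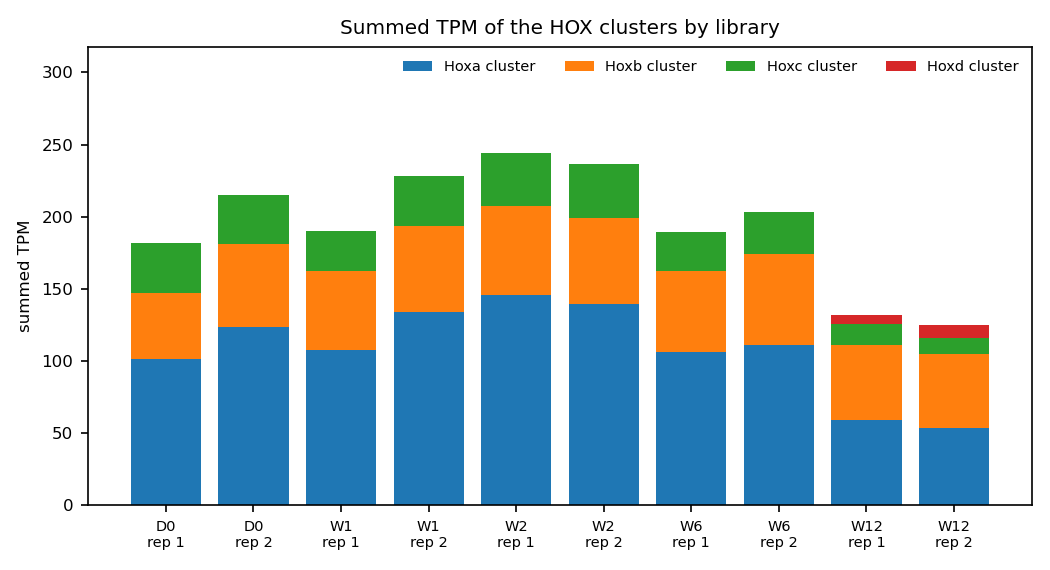
Stacked bars give the summed TPM of the HOX genes of each cluster (vertical axis) in each of the 10 libraries (horizontal axis, 2 replicates for each of D0, W1, W2, W6 and W12). The bars of the 2 W12 libraries, at 132 and 125 TPM, are the shortest, and the Hoxd part is visible only there.

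To ask which HOX genes moved, the 17 genes were tested within a limma fit of log2(TPM + 1) on all 13110 genes whose mean reached 1 TPM, and a change was called at a Benjamini-Hochberg adjusted p under 0.05 over all of them. Changes below are on that log2(TPM + 1) scale, which understates the change of low genes. At W1, 1 of the 17 was called, Hoxb7, which rose (9.89% of all genes tested were called, 5.79% higher and 4.10% lower). At W2, 2 were called, Hoxa9 and Hoxb7, both higher (15.7% of all genes, 9.06% higher and 6.64% lower). At W6, Hoxa9 and Hoxb7 were higher and Hoxa5 and Hoxc4 lower, 4 of 17 against 32.4% of all genes. At W12, 14 of 17 were called against 43.0% of all genes, of which 12 were lower (25.1% of all genes were called lower) and 2, again Hoxa9 and Hoxb7, higher (17.9% of all genes were called higher). The median change of the 17 HOX genes was -0.03, 0.16, -0.13 and -0.81 at W1, W2, W6 and W12, beside 0.09, 0.06, 0.08 and -0.08 over all genes tested. Over the 4 changes from D0 together (moderated F test), 13 of the 17 varied, against 57.5% of all genes.

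Which HOX genes passed was firmer for some than for others. Of the 14 changes called at W12, 6 passed in all 10 fits that left out 1 library, namely the falls of Hoxa2, Hoxa5, Hoxa7, Hoxc4 and Hoxc6 and the rise of Hoxb7. In such fits the lone library of a timepoint is assumed to vary like those of the other timepoints. Without W12 replicate 2 the count was 7 of 17, beside 3668 of all 13110 genes. Without D0 replicate 2, the library that went against its label, it was 10 (2 higher and 8 lower), beside 3737 of all genes. Without that D0 library the median change of the 17 genes was 0.20, 0.25, -0.03 and -0.81 at W1, W2, W6 and W12. Over all genes tested it was 0.07, 0.03, 0.05 and -0.13.

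**Figure D2:**
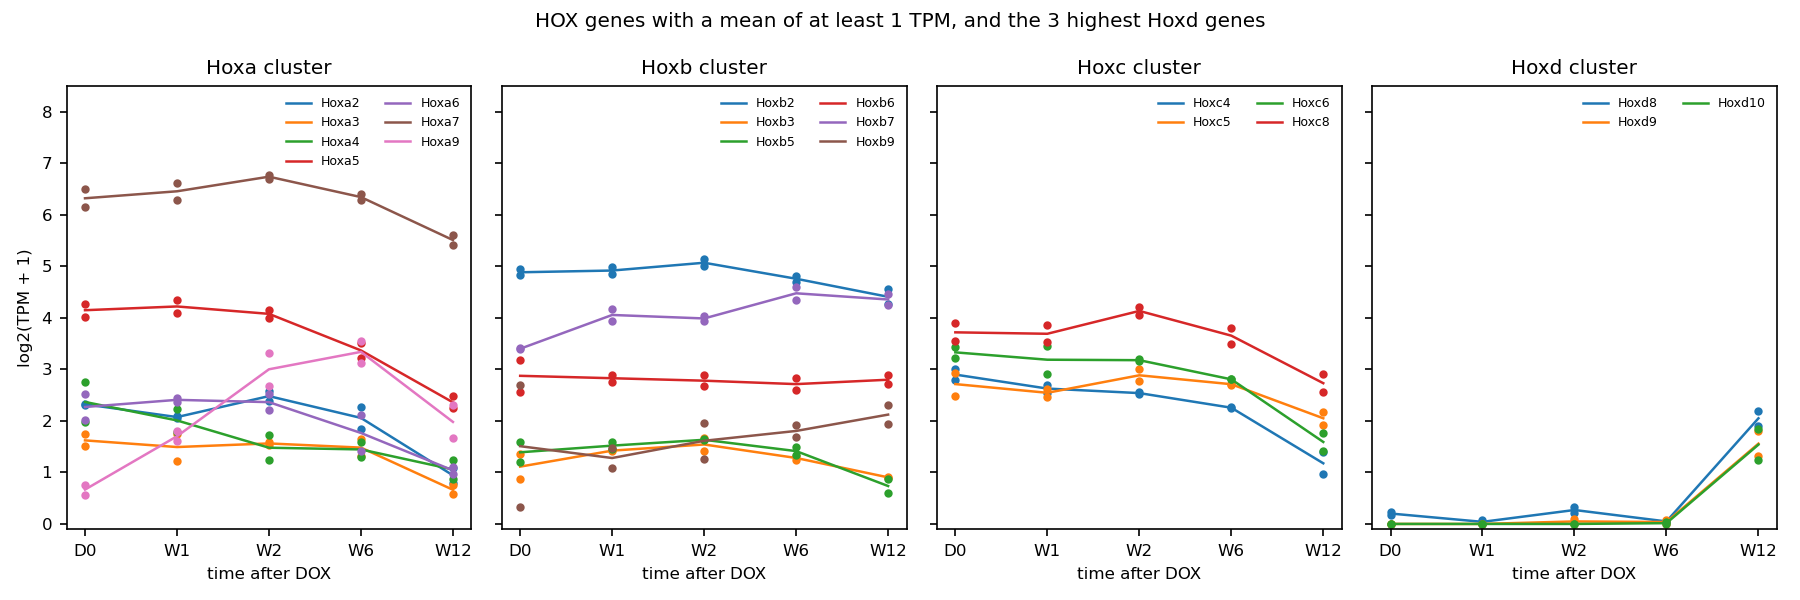
Points give log2(TPM + 1) (vertical axis) of the 17 HOX genes tested and of Hoxd8, Hoxd9 and Hoxd10, 1 point a library, and lines join the means of the 2 libraries at D0, W1, W2, W6 and W12 (horizontal axis), with a panel for each cluster. Most Hoxa and Hoxc lines are lowest at W12, Hoxa9 and Hoxb7 are highest at W6, and the 3 Hoxd lines stay near 0 up to W6 and are highest at W12.

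In the Hoxa cluster, 6 genes from Hoxa2 to Hoxa7 fell by W12 and Hoxa9 rose. Hoxa5, a central HOX gene known for its role in lung and axial patterning, was at 15.3 and 18.3 TPM at D0, 16.1 and 19.3 at W1, 16.8 and 14.999 at W2, 10.4 and 8.35 at W6 and 4.56 and 3.74 at W12. Both W6 libraries lay below all 6 earlier ones and both W12 libraries below W6. Its level fell by 0.78 on the log2 scale at W6 (SE 0.19, adjusted p = 0.0163), a call lost without D0 replicate 2 and without W6 replicate 2, and from D0 to W12 by 1.79 (SE 0.19, adjusted p = 0.000237), the largest fall on this scale among the 17 genes. Hoxa7, the most abundant HOX gene, was at 69.6 and 89.5 TPM at D0, 77.3 and 97.5 at W1, 109 and 103 at W2, 76.7 and 83.9 at W6 and 47.9 and 41.5 at W12. Its D0 and W6 values overlapped, and both W12 libraries lay below all others. From D0 to W12 Hoxa7 fell by 0.81 (SE 0.17, adjusted p = 0.00635). In the annotation 20.4% of the Hoxa7 exons lie opposite exons of the antisense RNA Hoxaas3, and whether strand was used in counting is not given in the sources used here.

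The anterior genes Hoxa2, which patterns the hindbrain and second pharyngeal arch, and Hoxa3, needed for thymus and parathyroid, moved late. Hoxa2 was at 3.98 and 4.03 TPM at D0, 3.16 and 3.26 at W1, 4.996 and 4.196 at W2, 3.81 and 2.5996 at W6 and 0.736 and 1.13 at W12. It fell by 1.38 (SE 0.22, adjusted p = 0.00173) from D0 to W12. Hoxa3 was at 1.84 and 2.33 TPM at D0, 1.35 and 2.38 at W1, 2.002 and 1.91 at W2, 1.497 and 2.12 at W6 and 0.686 and 0.487 at W12. It fell by 0.96 (SE 0.25, adjusted p = 0.0155). Before W12 the Hoxa2 libraries lay below D0 at W1 and W6 and above it at W2, and those of Hoxa3 overlapped D0, without any call. At W12 both libraries of each gene lay below all earlier ones. Hoxa4, a central gene, was at 5.73 and 2.96 TPM at D0, 2.45 and 3.69 at W1, 2.29 and 1.36 at W2, 2.02 and 1.46 at W6 and 1.38 and 0.822 at W12. The lower D0 value lay between the values of W1, and the W12 values overlapped those of W2. It fell by 1.31 (SE 0.33, adjusted p = 0.0122). Its neighbour Hoxa6 was at 3.06 and 4.73 TPM at D0, 4.19 and 4.43 at W1, 4.72 and 3.63 at W2, 3.36 and 1.65 at W6 and 1.16 and 0.955 at W12, with both W12 libraries below all earlier ones. Hoxa6 fell by 1.23 (SE 0.29, adjusted p = 0.00935). The W12 calls of Hoxa3, Hoxa4 and Hoxa6 were each lost in 2 of the 10 fits that left out 1 library.

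Hoxa9, the posterior gene best known for driving leukaemia when kept on, went the other way and had the largest change from D0 among the 17 genes on the log2(TPM + 1) scale. It was at 0.699 and 0.483 TPM at D0, 2.04 and 2.48 at W1, 5.42 and 8.996 at W2, 7.71 and 10.8 at W6 and 2.16 and 3.92 at W12. All 8 induced libraries lay above both D0 libraries, the highest were those of W2 and W6, and W12 overlapped W1. The log2 change from D0 was 1.03 (SE 0.31, adjusted p = 0.0696) at W1, which did not pass, 2.33 (SE 0.31, adjusted p = 0.00176) at W2, 2.67 (SE 0.31, adjusted p = 0.000555) at W6 and 1.31 (SE 0.31, adjusted p = 0.00914) at W12. Between W6 and W12 Hoxa9 fell by 1.36 (SE 0.31, adjusted p = 0.0175). The call at W12 was lost without D0 replicate 2 and without W12 replicate 2, whereas those at W2 and W6 passed in all 10 fits that left out 1 library. The next posterior gene, Hoxa10, stayed at or under 0.253 TPM, Hoxa13 at or under 0.0325 TPM, and Hoxa11 was listed at 0.

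In the Hoxb cluster the members did not move together. Hoxb7, a central gene, was at 9.59 and 9.52 TPM at D0, 14.4 and 16.97 at W1, 14.4 and 15.4 at W2, 19.4 and 23.3 at W6 and 21.2 and 17.9 at W12. All 8 induced libraries lay above both D0 libraries. It rose by 0.66 (SE 0.17, adjusted p = 0.0453) at W1, 0.59 (SE 0.17, adjusted p = 0.0495) at W2, 1.08 (SE 0.17, adjusted p = 0.00243) at W6 and 0.96 (SE 0.17, adjusted p = 0.00275) at W12. The W1 and W2 calls lie close to the threshold, and neither passed under median-ratio scaling, under quantile normalization or without any 1 of 8 of the 10 libraries. Hoxb2, an anterior gene of the hindbrain and the most abundant of the cluster, was at 27.3 and 29.8 TPM at D0, 27.8 and 30.7 at W1, 34.1 and 31.1 at W2, 25.04 and 27.2 at W6 and 18.2 and 22.5 at W12. Both W12 libraries were below all others, and from D0 to W12 it fell by 0.48 (SE 0.16, adjusted p = 0.0371), a call lost in 6 of the 10 fits that left out 1 library. Hoxb5, a central gene of the neural crest and gut, was at 1.29 and 1.996 TPM at D0, 2.02 and 1.73 at W1, 2.13 and 2.08 at W2, 1.52 and 1.82 at W6 and 0.508 and 0.839 at W12, again lowest in both W12 libraries. It fell by 0.65 (SE 0.23, adjusted p = 0.0475), a call lost in 7 of them. Exons of the antisense RNA Hoxb3os lie opposite 27.3% of the Hoxb2 exons and 52.9% of the Hoxb3 exons, so those values may hold reads of both strands.

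Hoxb9, the posterior gene at the end of the expressed run, was at 0.249 and 5.49 TPM at D0, 1.79 and 1.11 at W1, 1.403 and 2.898 at W2, 2.21 and 2.798 at W6 and 3.92 and 2.85 at W12. The 2 D0 libraries were the lowest and the highest of the 10, and the change to W12 of 0.61 (SE 0.64, adjusted p = 0.464) did not pass. It rested on which D0 library was kept, with -0.58 (SE 0.37, adjusted p = 0.232) without replicate 1 and 1.80 (SE 0.37, adjusted p = 0.0113) without replicate 2, the library that went against its label. Each of these rests on a single D0 library, with an error taken from the other timepoints. Hoxb6 stayed between 4.93 and 8.08 TPM and Hoxb3 between 0.835 and 2.17 TPM over the 10 libraries, and neither passed at any timepoint, with log2 changes to W12 of -0.08 (SE 0.24) and -0.21 (SE 0.23). Hoxb4, a gene of the blood stem cell programme, had a mean of 0.794 TPM. Hoxb1 and Hoxb8 did not reach 1 TPM in any library.

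All 4 detected genes of the Hoxc cluster fell by W12. Hoxc4 was at 7.01 and 5.95 TPM at D0, 4.86 and 5.52 at W1, 4.88 and 4.74 at W2, 3.74 and 3.81 at W6 and 1.62 and 0.949 at W12, and both W6 libraries lay below all 6 earlier ones. It fell by 0.64 (SE 0.21, adjusted p = 0.0456) at W6, a call lost in 8 of the 10 fits that left out 1 library, and fell by 1.72 (SE 0.21, adjusted p = 0.000438) at W12. Hoxc6 was at 9.78 and 8.38 TPM at D0, 6.54 and 10.01 at W1, 7.92 and 8.19 at W2, 5.996 and 5.997 at W6 and 2.401 and 1.67 at W12, below all 6 earlier libraries at W6 and lower again at W12. Its change at W6 of -0.52 (SE 0.23, adjusted p = 0.112) did not pass, and by W12 it fell by 1.74 (SE 0.23, adjusted p = 0.000642). Hoxc8, a thoracic patterning gene, was at 10.7 and 13.9 TPM at D0, 10.5 and 13.5 at W1, 15.7 and 17.4 at W2, 10.3 and 13.03 at W6 and 6.47 and 4.91 at W12. Its highest values were those of W2, which did not pass against D0. At W12 it fell by 0.99 (SE 0.22, adjusted p = 0.00754), a call lost without W12 replicate 2. Hoxc5 was at 6.66 and 4.62 TPM at D0, 4.52 and 5.17 at W1, 7.03 and 5.797 at W2, 5.51 and 5.597 at W6 and 3.51 and 2.81 at W12. Its D0 to W6 libraries overlapped, both W12 libraries lay below them, and it fell by 0.66 (SE 0.22, adjusted p = 0.037), a call lost in 7 of the 10 fits that left out 1 library.

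Hoxc13, which is known for controlling hair shaft keratins in the hair follicle, did not reach 1 TPM in any library. It was at 0.500 and 0.575 TPM at D0, 0.808 and 0.633 at W1, 0.834 and 0.711 at W2, 0.506 and 0.170 at W6 and 0.585 and 0.440 at W12. The W1 and W2 libraries lay above both D0 libraries, W12 overlapped D0, and W6 replicate 2 was the lowest. In a second fit that admitted all 20386 genes whose mean reached 0.1 TPM, its changes at W6 and W12 of -0.21 (SE 0.17, adjusted p = 0.4) and -0.02 (SE 0.17, adjusted p = 0.95) did not pass. Hoxc9 was the only other posterior Hoxc gene above 0.5 TPM anywhere, with 0.0455 and 0.0384 TPM at D0, 0.361 and 0.743 TPM at W2, and with 0.319 and 0.635 TPM in the W12 pair, and its change to W12 of 0.50 (SE 0.18, adjusted p = 0.0713) did not pass.

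**Figure D3:**
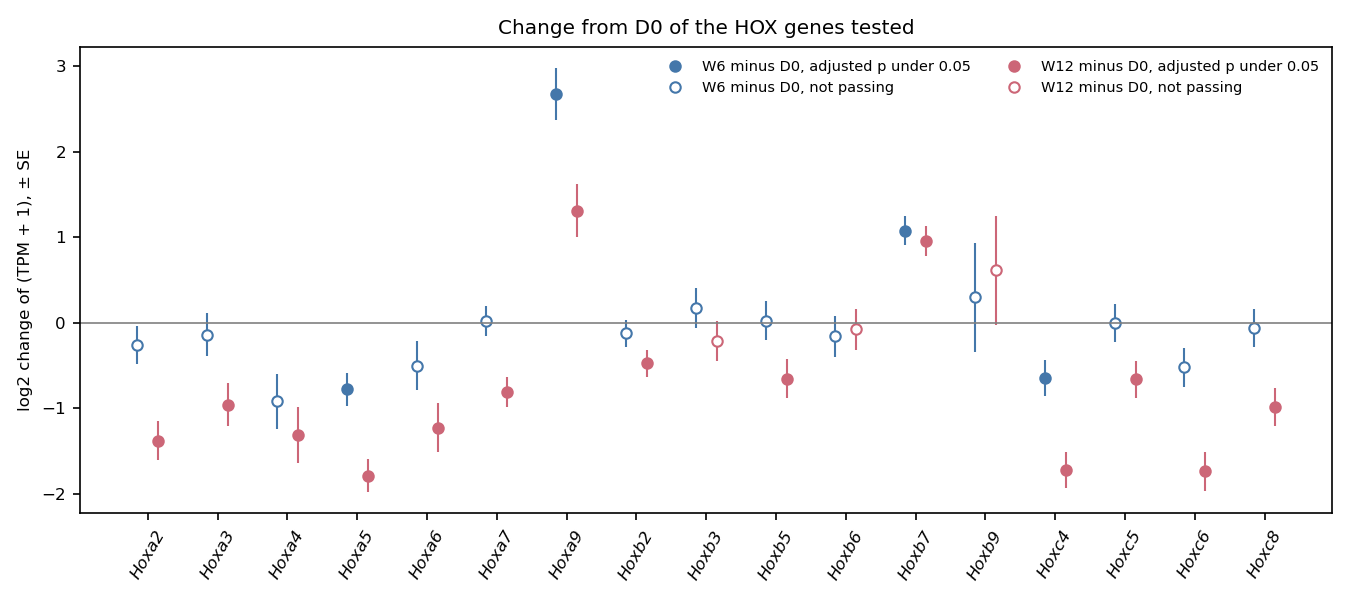
Points give the log2 change of (TPM + 1) from D0 to W6 (blue) and from D0 to W12 (red) on the vertical axis for the 17 HOX genes tested, in order of cluster and number on the horizontal axis, bars give the standard error of the fit, and filled points passed at an adjusted p under 0.05. At W12, 12 filled points lie below 0 and those of Hoxa9 and Hoxb7 above it, and at W6 only 4 points are filled.

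Of the 9 Hoxd genes, 3 exceeded 1 TPM at W12 and none did before. From D0 to W6 no Hoxd gene exceeded 0.251 TPM in any library, and at W12 Hoxd8, Hoxd9 and Hoxd10, which lie next to each other in the middle of the cluster and are best known from trunk, limb and urogenital patterning, all exceeded 1 TPM. The 250 bases before the RefSeq start of each are printed here (GRCm38.p6, 5′ to 3′ along the gene), since these were the genes that were near 0 at D0 and present later, and Hoxa9 is added as the gene with the largest rise from D0 among the 17 on that scale. Capitals mark the core of the SOX recognition sequence, ACAAT or its complement ATTGT.
Hoxd8, chr2:74704365-74704614, plus strand: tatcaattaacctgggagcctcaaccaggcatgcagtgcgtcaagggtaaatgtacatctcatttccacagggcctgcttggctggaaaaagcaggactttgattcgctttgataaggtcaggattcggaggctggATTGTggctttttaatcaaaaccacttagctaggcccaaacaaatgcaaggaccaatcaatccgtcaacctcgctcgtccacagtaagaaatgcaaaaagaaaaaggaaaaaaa
Hoxd9, chr2:74697513-74697762, plus strand: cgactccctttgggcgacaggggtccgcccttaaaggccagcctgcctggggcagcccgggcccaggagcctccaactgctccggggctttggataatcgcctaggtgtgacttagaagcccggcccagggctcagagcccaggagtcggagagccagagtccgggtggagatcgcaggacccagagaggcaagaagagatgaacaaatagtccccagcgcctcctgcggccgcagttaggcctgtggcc
Hoxd10, chr2:74691641-74691890, plus strand: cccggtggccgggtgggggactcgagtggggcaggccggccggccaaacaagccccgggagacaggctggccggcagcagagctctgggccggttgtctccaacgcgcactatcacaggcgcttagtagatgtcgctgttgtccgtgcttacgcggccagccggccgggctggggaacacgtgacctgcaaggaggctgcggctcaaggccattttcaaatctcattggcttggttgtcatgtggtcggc
Hoxa9, chr6:52227371-52227620, minus strand: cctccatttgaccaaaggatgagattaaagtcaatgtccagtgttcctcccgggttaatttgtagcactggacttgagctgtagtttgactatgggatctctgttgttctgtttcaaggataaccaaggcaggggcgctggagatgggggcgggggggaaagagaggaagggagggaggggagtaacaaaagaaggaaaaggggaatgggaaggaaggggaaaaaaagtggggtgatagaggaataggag
The SOX core was found once before Hoxd8 and not in the other 3 windows. The same letters, searched on both strands like every motif here, occurred in 27.7% of 32851 RefSeq promoter windows of this length and in 5 of the 24 windows that belong to HOX genes (22 genes matched), so the match describes the letters and not a site in use. The RUNX core TGTGGT occurred once, before Hoxd10 (14% of all windows), and neither TGATNNAT, a HOX and PBX composite (7.68%), nor TATAAA (12.4%) occurred in the 4 windows. The windows before Hoxd9 and Hoxd10 were rich in G and C, at 65.2% and 65.6%, and that before Hoxd8 was at 44.4%, beside a median of 58.6% over the HOX windows and 52.4% over all.

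Hoxd8 was at 0.123 and 0.179 TPM at D0, 0 and 0.0575 at W1, 0.164 and 0.251 at W2, 0.0322 and 0.0358 at W6 and 2.75 and 3.58 at W12. Hoxd9 was at 0 and 0 TPM at D0, 0 and 0 at W1, 0 and 0.0696 at W2, 0.0524 and 0 at W6 and 1.499 and 2.47 at W12. Hoxd10 was at 0 and 0 TPM at D0, 0 and 0 at W1, 0 and 0 at W2, 0.0208 and 0 at W6 and 1.37 and 2.56 at W12. For all 3 genes both W12 libraries lay above all 8 earlier ones, and W12 replicate 2 was the higher. Their means over the 10 libraries were under 1 TPM, and no test is given, since they pass a lower minimum only through their W12 values. The other 6 Hoxd genes, Hoxd1, Hoxd3, Hoxd4, Hoxd11, Hoxd12 and Hoxd13, stayed at or under 0.183 TPM throughout. The antisense RNA Hoxd3os1, whose gene spans Hoxd8, was at 1.29 and 2.5002 TPM at W12 and at or under 0.152 TPM before. The pattern was limited to W12, where the 5 endothelial markers were at 57.0 and 124 TPM in sum and higher in replicate 2, as the Hoxd sum was (5.80 and 8.89 TPM), and where the skin was grafted. Merkel cell markers (79.5 and 252 TPM, at most 9.78 TPM before), Cd34 (16.5 and 32.001 TPM) and Cd74 (102 and 124 TPM) had the same order, and melanocyte markers (14.1 and 12.4 TPM) the opposite one. Cd34 and Cd74 were the only members of their lists above all earlier libraries. The Merkel cell sum was mostly Krt8 (46.3 and 145 TPM) and Krt18 (32.9 and 105 TPM), with Krt20 at or under 0.544 TPM. Among the 10 fibroblast markers 0 lay above all earlier libraries in both, although Dcn, at 13.2 and 27.2 TPM, was above all of them but W6 replicate 2. Their sum is mostly Postn, which was at 213 TPM or more in every library. The part of any of these cells, or of grafting, in the Hoxd values was not tested.

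**Figure D4:**
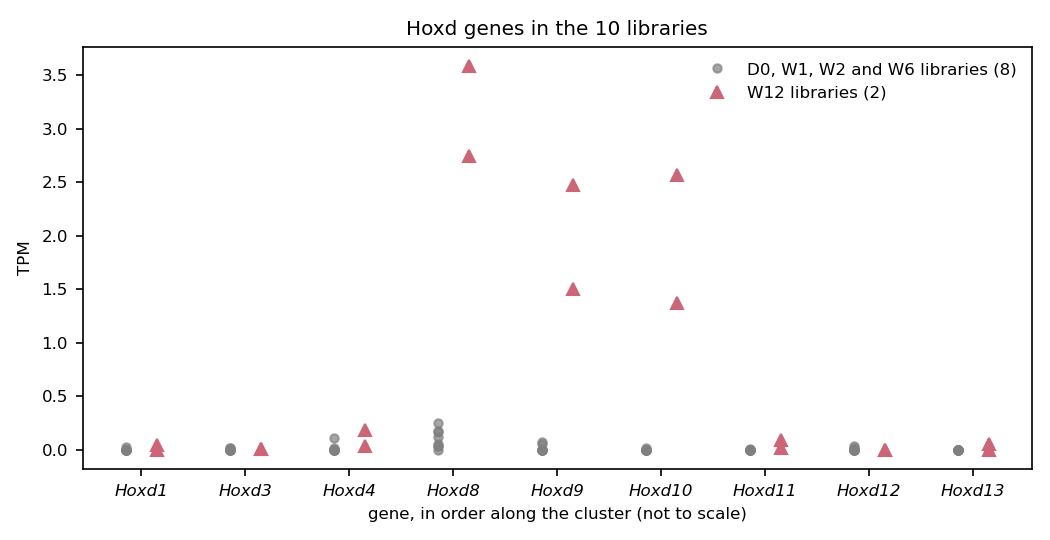
Points give TPM (vertical axis) of the 9 Hoxd genes in order along the cluster (horizontal axis, not to scale), grey circles for the 8 libraries of D0 to W6 and red triangles for the 2 W12 libraries. Hoxd8, Hoxd9 and Hoxd10 lie between 1.37 and 3.58 TPM at W12, and every other point is near 0.

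**Figure D5:**
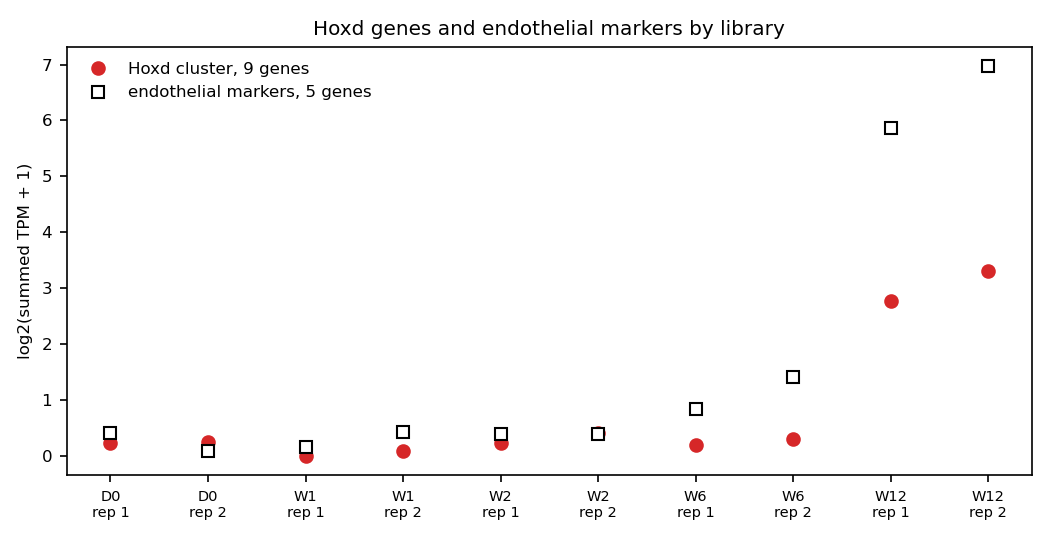
For each of the 10 libraries (horizontal axis), filled circles give the sum of the 9 Hoxd genes and open squares the sum of the 5 endothelial markers, both as log2(summed TPM + 1) on the vertical axis. The Hoxd sums are at most 0.320 TPM and the marker sums at most 1.64 TPM up to W6, and both are highest in the 2 W12 libraries.

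Set out by position, the posterior genes (groups 9 to 13, 16 genes) held a larger share of HOX RNA at W6 and W12 than at D0. They summed to 1.52 and 6.63 TPM at D0, where most of the difference between the replicates was Hoxb9, to 4.75 and 4.69 TPM at W1, 8.16 and 13.6 TPM at W2, 11.2 and 14.5 TPM at W6 and 10.01 and 13.0 TPM at W12. As a share of all HOX TPM this was 0.838% and 3.09% at D0, 5.91% and 7.14% at W6 and 7.60% and 10.4% at W12, with every W6 and W12 library above both D0 libraries. Hoxa9 made up most of it at W6, and Hoxb9, Hoxa9, Hoxd9 and Hoxd10 together made up most of it at W12. The central genes (groups 4 to 8, 15 genes) held 79.8% and 78.7% at D0 and 76.3% and 69.0% at W12, and the anterior genes (groups 1 to 3, 8 genes) 19.4% and 18.2% at D0 and 16.1% and 20.5% at W12. No test was made on these shares.

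Between neighbouring timepoints the main step was the last. From W1 to W2, 0 of the 17 HOX genes were called by limma, with 1 (Hoxa9) at an unadjusted p under 0.05 (0.114% of all genes were called, 0.0458% higher and 0.0686% lower), and from W2 to W6 Hoxa5 alone was, lower (16.3% of all genes, 7.99% higher and 8.31% lower). From W6 to W12, 7 were called and all were lower, namely Hoxa2, Hoxa5, Hoxa7, Hoxa9, Hoxc4, Hoxc6 and Hoxc8 (20.2% of all genes were called). The median change of the 17 genes in that step was -0.73, beside -0.16 over all genes tested. Under median-ratio scaling the same step gave 7 HOX genes lower and 0 higher, whereas the calls over all genes went from 873 higher and 1769 lower to 1063 higher and 842 lower. None of the 7 passed in every fit that left out 1 library, and without W12 replicate 1 and replicate 2 the counts were 3 and 2, all lower, beside 761 and 1285 of all 13110 genes. Both W12 libraries lay below all 8 earlier libraries for 11 of the 17 genes, against 22.6% of all genes tested, and above them for 0 of the 17, against 10.1%.

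Of 22 HOX genes with a mean under 1 TPM, 17 stayed under 1 TPM in every library, and those above it in some library included Hoxd8, Hoxd9, Hoxd10 and Hoxb4. In the fit with the lower minimum Hoxb8 fell by 0.40 (SE 0.12, adjusted p = 0.035) at W12, from 0.398 and 0.465 TPM to 0.0423 and 0.126 TPM (15.7% of all genes in that fit were called lower). Values this low gave single libraries large weight, as for Hoxb1 at 0.659 TPM in W6 replicate 2 and at most 0.143 TPM in the others.

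Partners of the HOX proteins were present at all timepoints. Of 9 TALE cofactor genes 8 were tested, and 1 was called higher and 1 lower at W1, 1 and 2 at W2, 1 and 4 at W6 and 1 and 3 at W12, beside 9.89%, 15.7%, 32.4% and 43.0% of all genes called at these timepoints. Pbx4 was at 6.04 and 5.87 TPM at D0, 1.19 and 2.101 at W1, 1.17 and 1.204 at W2, 0.746 and 1.31 at W6 and 0.564 and 0.458 at W12, and all 8 induced libraries lay below D0. It fell by 2.20 (SE 0.25, adjusted p = 0.000284) at W12. Pbx3 was at 3.16 and 2.47 TPM at D0, 5.12 and 5.31 at W1, 6.56 and 6.16 at W2, 7.24 and 13.7 at W6 and 5.86 and 6.79 at W12. It was higher by 1.53 (SE 0.27, adjusted p = 0.00393) at W6 and 0.94 (SE 0.27, adjusted p = 0.0216) at W12. Meis3 was at 0.680 and 0.867 TPM at D0, 2.303 and 3.11 at W1, 1.24 and 0.734 at W2, 0.249 and 0.151 at W6 and 0.0961 and 0.595 at W12. It is the gene counted as higher at W1, but its mean reached 1 TPM only through the W1 libraries, so no test of it is given. The median change of the 8 at W12 was -0.51, and without either W12 library or D0 replicate 2 no TALE gene was called higher and 2 were called lower, beside 3362, 3668 and 3737 of all 13110 genes called in these 3 fits.

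Of 18 Polycomb genes tested, which regulate HOX clusters, 0 were called at W1, 2 lower at W2 and 2 higher and 3 lower at W6, beside 9.89%, 15.7% and 32.4% of all genes. At W12, 1 was higher and 8 were lower, 9 of 18 against 43.0% of all genes called (25.1% lower), with a median change of -0.48 there. Cbx2, a chromodomain subunit of Polycomb complexes, fell by 1.22 (SE 0.21, adjusted p = 0.00236), and Rnf2, a ubiquitin ligase of the same complexes, fell by 0.97 (SE 0.21, adjusted p = 0.00598). Without W12 replicate 1 the count was 3, all lower, beside 3362 of all 13110 genes, and without W12 replicate 2 it was 4, all lower, beside 3668. Of 10 trithorax and H3K27 demethylase genes, 0 were called at W1, 1 lower at W2, 1 higher and 2 lower at W6, and 0 higher and 5 lower at W12, beside the same shares of all genes, where the median change was -0.53. Kmt2a, the methyltransferase that maintains HOX expression in blood, fell by 1.84 (SE 0.33, adjusted p = 0.00287), and Dot1l, the H3K79 methyltransferase, fell by 1.56 (SE 0.20, adjusted p = 0.00058). Psip1, which tethers Kmt2a to chromatin, rose at W6 by 1.40 (SE 0.32, adjusted p = 0.0121), and its change at W12 of 0.74 (SE 0.32, adjusted p = 0.0933) did not pass. Without W12 replicate 1, 2 of the 10 were called, both lower, again beside 3362 of all genes. Over all genes tested the median change at W12 was -0.08.

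Retinoic acid switches HOX genes on in embryos, and listed genes of its pathway moved in both directions here. Of 22 listed inducers (among them CDX factors, retinoic acid genes and Egr2) 14 were tested, with 2 higher and 1 lower at W1, 3 and 1 at W2, 4 and 5 at W6 and 5 and 6 at W12, beside the 9.89%, 15.7%, 32.4% and 43.0% of all genes called. One of the 5 higher at W12, Crabp1 (named after its values were seen), reached a mean of 1 TPM only through W12 and gives that count no support. Crabp2, which delivers retinoic acid to the nucleus, was at 10.3 and 5.31 TPM at D0, 56.8 and 106 at W1, 81.7 and 109 at W2, 529.6 and 249 at W6 and 273 and 358 at W12. It rose by 5.43 (SE 0.43, adjusted p = 9.98e-05) at W6. Aldh1a3, which makes retinoic acid, was at 0.864 and 0.451 TPM at D0, 0.495 and 0.487 at W1, 0.664 and 0.728 at W2, 10.6 and 12.8 at W6 and 25.1 and 43.3 at W12. The Aldh1a3 mean reached 1 TPM only through W6 and W12, so no test of it is given. It was counted as higher at both and gives those counts no support. In contrast the receptor genes Rarg, Rxra and Rara, which are named here after their values were seen, fell at W12 with changes of -2.57, -2.36 and -1.97 on the log2 scale (limma adjusted p = 0.000104, 0.000149 and 0.000764). The intestinal HOX activators Cdx1 and Cdx4 were listed at 0 in every library and Cdx2 at or under 0.0134 TPM. Whether any of these genes acted on the clusters was not tested.

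Of 7 genes tested that flank the clusters, 0 were called at W1 and W2, 1 higher and 2 lower at W6 and 1 higher and 3 lower at W12, against 32.4% and 43.0% of all genes called at W6 and W12. Calcoco1, beside Hoxc, fell by 1.47 (SE 0.29, adjusted p = 0.00437) at W12. Smug1, which also flanks Hoxc and was named after its values were seen, fell by 0.52 (SE 0.16, adjusted p = 0.0279). Skap2, beside Hoxa, fell by 0.46 (SE 0.16, adjusted p = 0.0443), and Mtx2, beside Hoxd, rose by 0.70 (SE 0.19, adjusted p = 0.0178). Lnpk, the next gene on the other side of Hoxd, was at 16.98 and 12.9 TPM at D0 and 15.1 and 18.6 TPM at W12, with overlapping values, and Evx2, between Lnpk and Hoxd13, was listed at 0 in every library.

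Of 16 listed non-coding RNAs of the clusters 4 were tested, all in the Hoxa and Hoxb clusters, with 1 higher at W2 and at W6 and 1 lower at W12 (15.7%, 32.4% and 43.0% of all genes were called). Hotairm1, an antisense RNA of the Hoxa cluster, was at 70.4 and 56.4 TPM at D0, 61.3 and 70.9 at W1, 62.9 and 81.9 at W2, 41.1 and 40.3 at W6 and 33.5 and 23.2 at W12, lowest in both W12 libraries. It fell by 1.15 (SE 0.21, adjusted p = 0.00324). Hoxaas3, opposite Hoxa7, was at 2.82 and 2.08 TPM at D0, 3.78 and 2.598 at W1, 9.23 and 5.94 at W2, 5.897 and 4.58 at W6 and 3.61 and 2.75 at W12, with its highest values at W2, where it rose by 1.298 (SE 0.27, adjusted p = 0.0147). At W12 its change of 0.28 (SE 0.27, adjusted p = 0.432) did not pass. Hotair, in the Hoxc cluster, and Haglr, in the Hoxd cluster, were listed at 0 in every library. Gm53, an intergenic RNA between Hoxb13 and Hoxb9 on chromosome 11, 96251105 to 96264868, was noticed after its values were seen and stood at 1.63 and 6.698 TPM at D0, 8.77 and 9.65 at W1, 10.97 and 15.6 at W2, 19.4 and 16.01 at W6 and 12.5 and 11.7 at W12. It lay above both D0 libraries in all 8 induced ones. The changes were 2.05 (SE 0.42, adjusted p = 0.0078) at W6 and 1.54 (SE 0.42, adjusted p = 0.0183) at W12. Since the 2 D0 libraries lay far apart, the size of these changes depends on which of them is kept.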

How the data were processed

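RNA of sorted EpdSCs was sequenced in 10 libraries, 2 at each of 5 timepoints, from a low-input SMARTer kit. The authors trimmed reads with Skewer, quantified them with Salmon 1.4.0 on a GENCODE GRCm38 index that included the TRE-Sox9 sequence, and summarised them per gene as TPM with Tximport 1.12.3, and these deposited TPM values were used as given. TPM holds no depth, so no count model was used. The study calls the 2 libraries of a timepoint biological replicates, and the number of mice in each is not given in the sources used here.

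The 13110 genes whose mean reached 1 TPM were fitted as log2(TPM + 1) with limma 3.58.1 (R 4.3.3), all timepoints in one model with a trended variance prior, 5 residual degrees of freedom and Benjamini-Hochberg adjustment over all genes. The fit was tested on simulated data. Gene positions came from GENCODE M21 and promoters from RefSeq GRCm38.p6. Named were 15 HOX genes and Hoxc13 in full, the 3 highest of those under 1 TPM by library, and in each list the 3 genes with the largest change among those that varied. Members and lists were chosen with earlier results of these data known. Alternatives covered scaling, pseudocount, filter, samples fitted, replicate block and each left-out library. Some genes of the clusters and lists, counted in the totals, are not reported here by name.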

Additional observations from a re-analysis of the deposited data

How the results depend on the processing

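At W1, where 1 HOX gene was called, 0 were called under median-ratio scaling, quantile normalization, no filter beyond a value above 0, a minimum mean of 0.1 TPM, only the timepoints compared, the replicate block or an absolute log2 change of at least 1, and 2 with a pseudocount of 0.1. At W2, with 2 called, 1 was called under the same alternatives except the pseudocount, and under a minimum mean of 5 TPM or a variance prior without trend. At W6, with 4 of 17 called, 2 of the 8 then tested were called at a minimum mean of 5 TPM (3487 of all 9932 genes). With only the timepoints compared 1 of 17 was (1094 of all 13110), and 2 at an absolute log2 change of at least 1 (2350). At W12, with 14 of 17 called, 7 of the 8 then tested were called at a minimum mean of 5 TPM (4602 of all 9932 genes). At an absolute log2 change of at least 1, 7 of 17 were (3156 of all 13110). From W2 to W6, with 1 called, 0 were under quantile normalization, all genes above 0, a minimum mean of 0.1 TPM, only the timepoints compared, the replicate block and the fold minimum. From W6 to W12, with 7 of 17 called, 4 of 8 were at a minimum mean of 5 TPM (2153 of all 9932 genes). With only the timepoints compared 1 of 17 was (887 of all 13110). Over all timepoints, where 13 of 17 varied, 6 of 8 did at a minimum mean of 5 TPM (6147 of all 9932 genes). At the fold minimum 8 of 17 did (4277 of all 13110). In the alternatives with 0 called at W1, 411 to 1228 of all genes tested were called. In those with 1 called at W2, 1011 to 2063 were, and in those with 0 from W2 to W6, 940 to 2288. Where the alternative tests neither fewer genes nor fewer samples, the cause was not tested.

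With each library left out in turn, the median HOX change ran from -0.05 to 0.20 at W1 and 0.05 to 0.25 at W2. It ran from -0.26 to 0.01 at W6, from -0.93 to -0.80 at W12 and from -0.80 to -0.66 between W6 and W12. Over all genes tested the medians ran from -0.13 to -0.04 at W12 and from -0.22 to -0.09 between W6 and W12. The number called moved as well, for HOX genes and for all genes tested. The call of Hoxa5 from W2 to W6 was lost in some of these fits. The change of Hoxb9 at W12 ran from -0.58 to 1.80. Replicates with the same number shared little deviation (correlations of -0.129 to 0.182 over the steps). With 1 difference a timepoint this cannot decide whether the numbers pair the libraries. With the replicate block, 0, 1, 3 and 13 HOX genes were called at W1, W2, W6 and W12. Of all 13110 genes 1057, 1709, 3761 and 5259 were. Pairing crossed numbers, added after the data were seen, gave 1 at W1 (Hoxa9 and not Hoxb7), 3 at W6 and 7 from W6 to W12. Of all 13110 genes 1225, 4291 and 2666 were called. Median-ratio scaling moved the median change of all genes from -0.16 to -0.02 between W6 and W12.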
